A study of Mus musculus with 6 samples.

Results

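Lipid uptake and lipase genes of the endothelium were followed across 6 carotid artery samples. The genes were chosen by name: lipoprotein lipase (Lpl) and its capillary anchor Gpihbp1, the fatty acid binding proteins Fabp4 and Fabp5, the lipoprotein receptor Scarb1, and the intracellular lipases Pnpla2, Mgll and Pnpla1. The platform annotation assigned 14 probes to these 8 genes, out of 45281 probes and 19057 named genes in all. Mgll and Pnpla1 were included because their values on these arrays separated the groups, so their differences are given as a description with no test. The other 6 genes were chosen by function, with earlier results of these data known.

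Each sample was RNA enriched for endothelium and taken from a carotid artery of C57Bl/6J wild-type mice, in 2 groups of 3 samples, stable flow and disturbed flow. The labels give the same strain and genotype to all 6 and name no transgene or drug. They state neither the age nor how flow was disturbed, nor whether a sample came from 1 animal or a pool, so a p-value here reflects the spread among these samples alone, and that spread may be technical. RNA was labelled with biotin and hybridised to Illumina bead arrays, on which each probe gives a signal intensity and a detection p-value against negative control beads.

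Endothelial cells form the barrier that circulating lipid must cross. Lipoprotein lipase, held on the luminal face of capillaries by Gpihbp1, frees fatty acids from triglyceride-rich lipoproteins. Fabp4 and Fabp5 carry fatty acids inside the cell, and Scarb1 binds high-density lipoprotein and takes part in lipoprotein transport across endothelium. Inside cells Pnpla2, also called adipose triglyceride lipase, removes the first fatty acid of a triglyceride, and Mgll, monoglyceride lipase, removes the last and also breaks down the endocannabinoid 2-arachidonoylglycerol. Pnpla1 is a patatin-like enzyme known for making acylceramides of the skin barrier.

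The sources disagree on which arrays belong to which group, and this decides every sign below. Arrays were grouped by the sample descriptions, which name the scanned array, and a difference is the described disturbed flow arrays minus the described stable flow arrays. In the authors' second table of processed intensities, each of the 6 columns had the rank order (rank correlation 1) of an array described under the other group, so that table turns each sign. Neither source settles which is right. Each group lay on 1 of 2 slides, so an effect of the slide and one of flow cannot be told apart. On stable flow replicate 2 only 9.74% of probes were above background (detection p under 0.05), whereas the other 5 arrays had 19.6% to 35.0%. Of the 12546 probes tested over the whole array, limma called 0, or 0%, at an adjusted p under 0.05, and 338, or 2.69%, had an unadjusted p under 0.05.

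Detection divided the 8 genes. Fabp4, Pnpla1, Pnpla2 and Mgll each had a probe above background on at least 3 of the 6 arrays, the filter for testing, whereas Lpl, Gpihbp1, Fabp5 and Scarb1 had none. Of the 14 probes, 5 passed that filter, where 27.7% of all probes on the array did. Above background on 0 of 6 arrays were 6 member probes, against 50.6% of all probes. The single probe of Fabp4 was the only member probe above background on all 6 arrays, a state shared by 5.52% of all probes. On an array where a probe was not above background, its level has only an upper bound, and its transcript may be present below that bound.

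**Figure D1:**
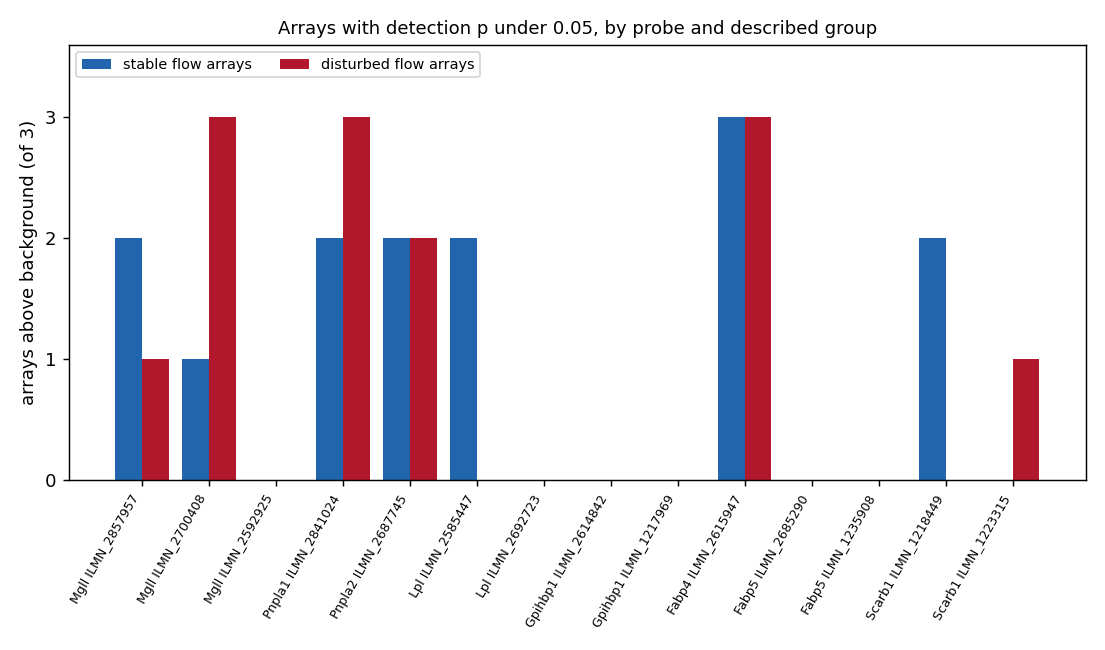
Number of arrays (of 3 in each described group) on which each of the 14 member probes had a detection p under 0.05. The Fabp4 probe reached 3 and 3, and both probes of Gpihbp1 and of Fabp5 reached 0 and 0.

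Gpihbp1, which carries lipoprotein lipase across capillary endothelium and holds it there, was not above background on any array with either probe. Its detection p-values lay between 0.269 and 0.906 for ILMN_2614842 and between 0.685 and 0.976 for ILMN_1217969. It was listed with Car4, Rgcc, Aqp7 and Cd300lg as a marker of capillary endothelium. Of these 5 genes, 4 were above background on 0 arrays, Gpihbp1 among them, and only Aqp7, a glycerol channel gene, passed the filter.

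Lpl, the lipase itself, was detected by probe ILMN_2585447 on 2 of the stable flow arrays and on 0 of the disturbed flow arrays. Its deposited signals for replicates 1, 2 and 3 were 122, 98.1 and 108 under stable flow, and 89.5, 76.7 and 79.4 under disturbed flow. After background correction and normalization the log2 intensities were 4.61, 6.35 and 4.68 under stable flow and 4.42, 4.35 and 4.34 under disturbed flow. The groups did not overlap, but the height of the stable flow group came from replicate 2, which had the lowest share of detected probes. A bound was set on each disturbed flow array by the lowest value among detected probes, or by the probe's own value where that was larger. Computed from mean normalized log2 intensities, Lpl on the stable flow arrays, 1 of which was not above background, was 1.41 times that bound. Without stable flow replicate 2 it was 0.946 times the bound, so no fold change is given. The other Lpl probe, ILMN_2692723, was above background on 0 arrays, with detection p-values from 0.0524 to 0.913, and was likewise highest on stable flow replicate 2 (log2 5.81, against 4.21 to 4.56 on the others).

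Scarb1, the high-density lipoprotein receptor gene, had probes that pointed opposite ways. Probe ILMN_1218449 had log2 intensities of 4.57, 6.39 and 4.76 on the 3 stable flow arrays and 4.41, 4.42 and 4.73 on the disturbed flow arrays. It was above background on stable flow replicates 1 and 2 only, and the groups overlapped. Its mean under stable flow, with stable flow replicate 3 not above background, was 1.43 times the same bound, and 0.959 times it without stable flow replicate 2. Probe ILMN_1223315 was above background only on disturbed flow replicate 1, at 4.76, against 4.19 to 4.43 on the other arrays. The 2 probes were annotated to different transcript records, and which transcripts each one reads was not examined.

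Stable flow replicate 2 had a narrow range of raw signal, with quartiles of 85.4 and 92.1, so that small steps in signal became large steps after quantile normalization. A Lpl signal of 98.1 became a log2 intensity of 6.35 on that array, whereas 122 became 4.61 on stable flow replicate 1. Disturbed flow replicates 2 and 3 were nearly as narrow, with quartiles of 74.6 and 83.8 and of 77.5 and 85.3. On stable flow replicate 1 the quartiles were 101.8 and 129.7. A Pnpla1 signal of 166 became 7.78 on disturbed flow replicate 3, whereas 157 became 5.21 on stable flow replicate 1.

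**Figure D2:**
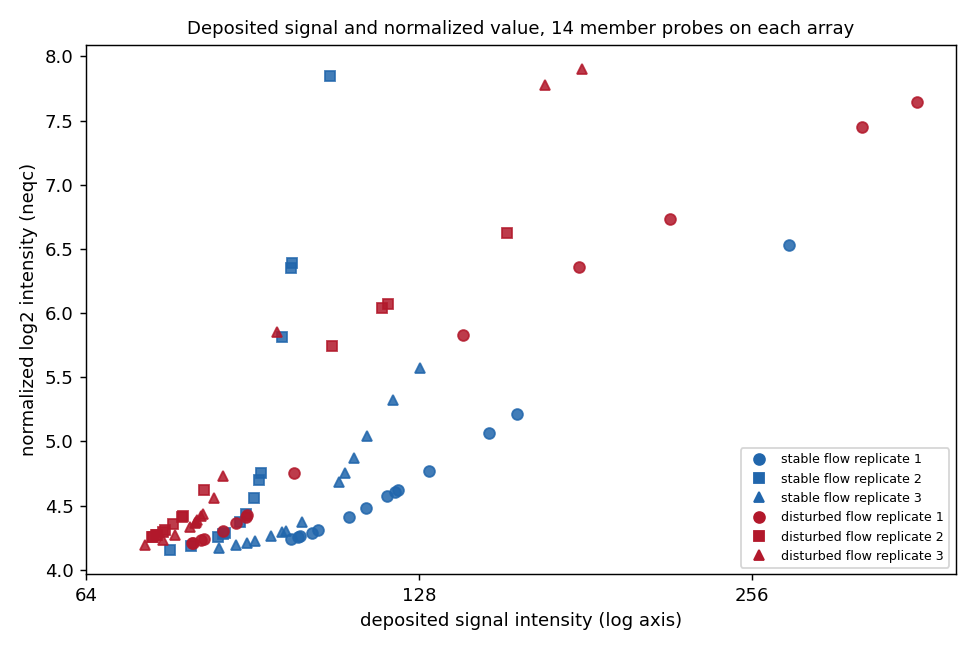
Normalized log2 intensity against the deposited signal intensity (log axis) for the 14 member probes on each of the 6 arrays, coloured by described group and shaped by replicate. The points of stable flow replicate 2 rise most steeply, reaching 7.85 at a signal of 106.

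Fabp4, the fatty acid carrier of capillary and some arterial endothelium as well as of fat cells and macrophages, was detected on every array, and its difference between the described groups was smaller than the spread within them. Its log2 intensities for replicates 1, 2 and 3 were 6.53, 7.85 and 5.32 under stable flow and 6.36, 6.07 and 7.90 under disturbed flow. On this scale each group held 1 high array, and the ranges overlapped almost fully. The deposited signals ranked the arrays otherwise, at 277, 106 and 121 under stable flow and 179, 120 and 180 under disturbed flow. By signal, stable flow replicate 2 was the lowest array and stable flow replicate 1 the highest. The log2 means were 6.57 ± 1.26 and 6.78 ± 0.98 (SD, n = 3 each), a difference of 0.21 (SE 0.75, 95% interval -1.54 to 1.96, limma adjusted p = 0.958). That interval leaves room for a change of severalfold either way. The sign turned when stable flow replicate 3 (-0.40) or disturbed flow replicate 3 (-0.34) was left out.

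Fat cell and macrophage markers were read beside Fabp4. Of the 8 adipocyte markers on the array, 0 passed the filter, 7 were above background on 0 arrays, and the defining marker Adipoq was among these 7. At most 1 of the 8 was above background on any array. Their mean log2 intensity was 4.58 on stable flow replicate 2, the stable flow array with the highest normalized Fabp4, and 4.30 to 4.35 on the other arrays. The mean of 6 skeletal muscle markers was likewise highest on that array, at 4.68 against 4.25 to 4.31 on the others. No other marker list was highest there. Of 9 macrophage markers, 6 were above background on disturbed flow replicate 1 and at most 2 on any other array. Their mean log2 intensity was 4.40 to 4.51 under stable flow, and 4.95, 4.41 and 4.87 on disturbed flow replicates 1, 2 and 3, of which replicate 3 had the highest Fabp4. The part of the adipocyte or macrophage markers in the Fabp4 values was not tested. Defining endothelial markers were present on all 6 arrays: Pecam1 and Cdh5 each had a probe above background on 3 and 3 arrays. Of 12 endothelial markers, 7 to 11 were detected under stable flow and 11 under disturbed flow, and Kdr was above background on 0 arrays. Smooth muscle and fibroblast markers were present too. Acta2 had a probe above background on 3 and 3 arrays, and Col1a2 on 2 and 3. Of 8 smooth muscle markers, 1 to 3 were detected under stable flow and 3 to 5 under disturbed flow. Of 7 fibroblast markers, 2 to 5 and 4 to 7 were detected. The part of these wall cells in the member values was not tested.

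Fabp5, the other endothelial fatty acid binding protein gene, was not above background on any array with either of its probes. Detection p-values ranged from 0.222 to 0.903 for ILMN_2685290 and from 0.519 to 0.997 for ILMN_1235908. The pair of binding protein genes was thus measured as 1 detected and 1 undetected gene, and no ratio between them was formed, since levels of different probes are not comparable.

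**Figure D3:**
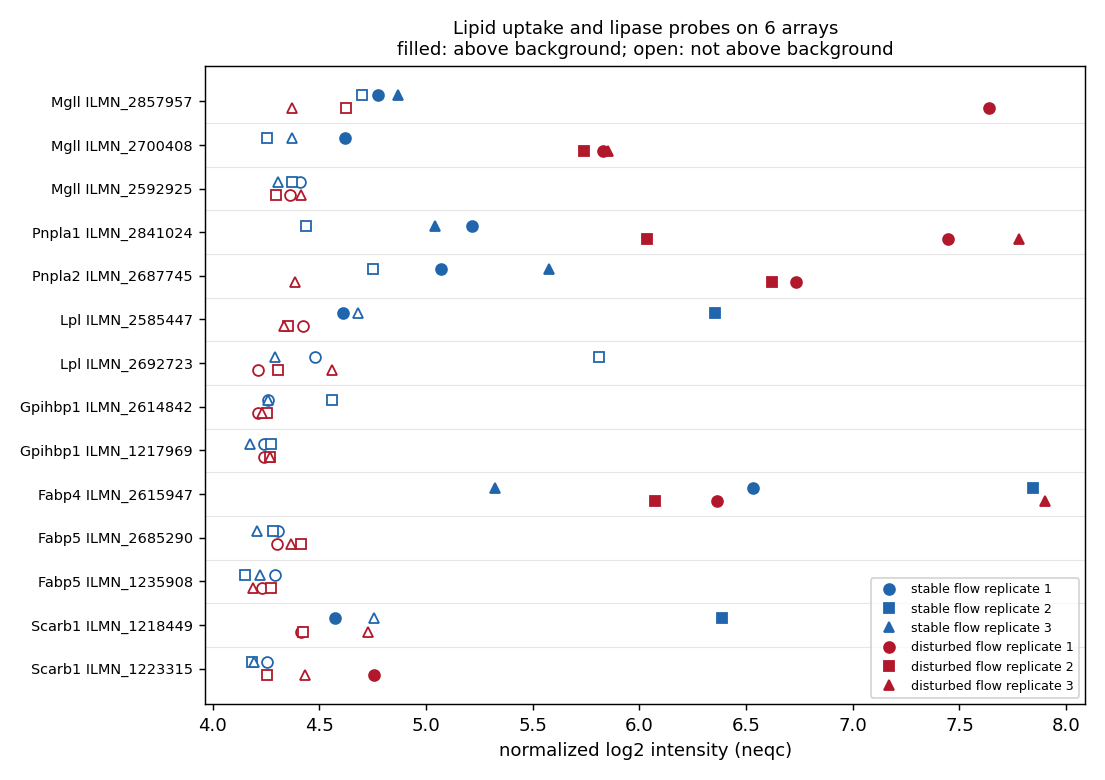
Normalized log2 intensity of the 14 member probes on 6 arrays; blue marks the described stable flow arrays and red the disturbed flow arrays, with filled symbols above background and open symbols not. Only Mgll ILMN_2700408 and Pnpla1 among the tested probes show groups that do not overlap, and the isolated high values of Lpl and of Scarb1 ILMN_1218449 belong to stable flow replicate 2.

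The intracellular lipases Pnpla2, Mgll and Pnpla1 each had a tested probe with a higher mean under described disturbed flow. Pnpla2, which starts triglyceride breakdown, had log2 intensities of 5.07, 4.75 and 5.58 on the stable flow arrays and 6.73, 6.62 and 4.38 on the disturbed flow arrays. Disturbed flow replicates 1 and 2 lay above all stable flow arrays, and replicate 3, where the probe was not above background, lay below all of them. The means were 5.13 ± 0.42 and 5.91 ± 1.32 (SD, n = 3 each), a difference of 0.78 (SE 0.66, 95% interval -0.78 to 2.34, limma adjusted p = 0.890). The difference was 1.61 without disturbed flow replicate 3 and 0.35 and 0.40 without disturbed flow replicates 1 and 2. It was 0.33 with no background correction. With scaling to a common 75th percentile, which moved the median of all tested probes to -0.68, it was 0.18.

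Mgll, monoglyceride lipase, was read by 3 probes that did not give 1 pattern. Probe ILMN_2700408, one of the values for which the gene was chosen, had log2 intensities of 4.62, 4.26 and 4.37 under stable flow and 5.83, 5.74 and 5.85 under disturbed flow. All disturbed flow arrays lay above all stable flow arrays, and the spread within the disturbed flow group was small (SD 0.06). The log2 difference of 1.39 (SE 0.31) is a description of the chosen gene. The probe was above background on 3 disturbed flow arrays but only 1 stable flow array, so the stable flow level is close to a floor. The deposited signals behind it were 122, 84.1 and 100.3 under stable flow and 140, 107 and 95.3 under disturbed flow, which overlap before the arrays are put on a common scale. The difference was 0.47 with no background correction and 0.37 (SE 0.85) with scaling to a common 75th percentile.

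The brightest Mgll probe, ILMN_2857957, was high on a single array. Its log2 intensities were 4.77, 4.70 and 4.87 under stable flow and 7.64, 4.62 and 4.37 under disturbed flow. The raw signal on disturbed flow replicate 1 was 361, against 80.4 to 131 on the other arrays. The difference of 0.76 (SE 0.83) turned to -0.27 without that array, on which 6 of 9 macrophage markers were also above background; their part in this value was not tested. The third probe, ILMN_2592925, was not above background on any array, with detection p-values from 0.153 to 0.572. All 3 probes are annotated to the same transcript record.

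Pnpla1, the patatin-like gene of skin barrier lipids, had the largest difference among the tested member probes. Its log2 intensities were 5.21, 4.44 and 5.04 on the stable flow arrays and 7.45, 6.04 and 7.78 on the disturbed flow arrays, and the groups did not overlap. The deposited signals were 157, 89.3 and 115 under stable flow and 322, 119 and 166 under disturbed flow, which overlap before the arrays are put on a common scale. The log2 difference of 2.19 (SE 0.52) again describes a gene chosen for it. The probe was above background on 2 stable flow and 3 disturbed flow arrays. The difference was 1.92 to 2.66 when single arrays were left out, 0.97 with no background correction and 1.14 (SE 0.85) with scaling to a common 75th percentile. It rests on 1 probe, the only one of the gene. Of 6 keratinocyte markers, which would mark skin, 4 were above background on 0 arrays, Krt14 among them, and at most 1 of the 6 on any array. Krt5 was above background on 0 stable flow arrays and 1 disturbed flow array. The mean log2 intensity of the 6 for replicates 1, 2 and 3 was 4.39, 4.32 and 4.35 under stable flow. Under disturbed flow it was 4.37, 4.47 and 4.48. Like Pnpla1, the mean of the macrophage markers given above was higher on disturbed flow replicates 1 and 3 than on the other 4 arrays. The part of either list in the Pnpla1 values was not tested.

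All 5 tested member probes had a difference above 0, as did 57.4% of all tested probes, and 2 of the 5 had groups that did not overlap with disturbed flow higher, as did 5.68% of all tested probes. Both of these 2 belong to the genes chosen for separating the groups, so nothing is read from the count. Limma called neither Pnpla2 nor Fabp4, the tested genes that were not chosen for their values.

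**Figure D4:**
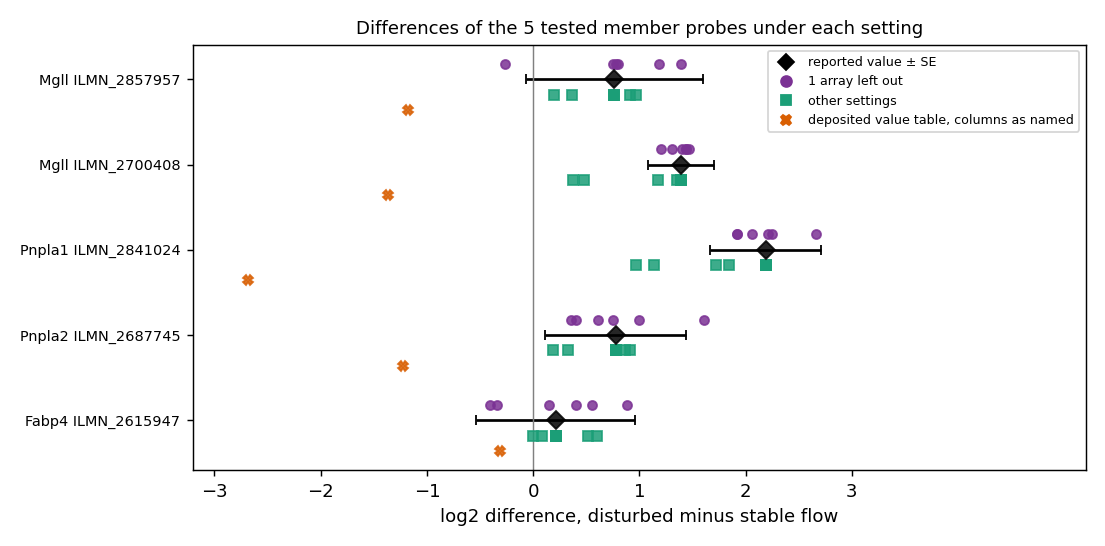
Log2 difference, described disturbed flow minus stable flow, of the 5 tested member probes: reported value with its SE (black), with 1 array left out (purple), under other settings (green) and from the deposited value table with columns as named (orange). Mgll ILMN_2700408, Pnpla1 and Pnpla2 stay above 0 except in the deposited value table, whose columns turn all 5 signs. Values of that table under 16 were set to 16.

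The members were set among 7 lists of lipid genes, each gene by its brightest tested probe. Limma called 0 genes of any list, and the limma adjusted p was 0.890 or more for each tested gene that is not Mgll or Pnpla1. The median difference over all tested probes was 0.10. Groups did not overlap for 9.68% of all tested probes in either direction.

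Of 12 genes that make, stabilise or regulate lipoprotein lipase, 10 were on the array and 2 were tested. Sel1l, which helps the lipase leave the endoplasmic reticulum, differed by -0.49 (SE 0.44), and its other tested probes gave 0.19 and 0.10. Lmf1, needed for the lipase to mature, differed by -0.64 (SE 0.59) and by 0.02 without stable flow replicate 2. The regulators Angptl8, Apoc3 and Apoa5 were above background on 0 arrays, like Gpihbp1.

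Of 25 genes of fatty acid uptake and binding, 24 were on the array, 6 were tested and 13 were above background on 0 arrays. The 6 had a median difference of 0.13, with 5 higher and 1 lower. The undetected genes included the fatty acid transport protein genes Slc27a1 and Slc27a4, Vegfb, a growth factor tied to endothelial fatty acid uptake, and Meox2, a transcription factor of fatty acid transport in heart capillaries. The acyl-CoA synthetase gene Acsl5 had 8.39 ± 1.37 under stable flow and 6.89 ± 0.25 under disturbed flow (SD, n = 3 each), a difference of -1.50 (SE 0.67). The groups did not overlap, and 2 other tested Acsl5 probes gave -1.02 and 0.97. Without stable flow replicate 3 the Acsl5 difference was -0.69. The related Acsl3 differed by 1.05 (SE 0.49), with 0.19 from its other tested probe and -0.08 with scaling to a common 75th percentile.

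Of 20 genes of intracellular lipolysis and lipid droplets, all were on the array, 6 were tested and 7 were above background on 0 arrays. The median over the 6, Pnpla2 and Mgll included, was 0.12, with 4 higher and 2 lower. The droplet coat gene Plin3 differed by -1.82 (SE 1.01), and by -0.55 without stable flow replicate 2. Hilpda, an inhibitor of Pnpla2, differed by -0.45 (SE 0.52) and by 0.06 without that array, and its other tested probe gave -0.018. Of the protein partners of Pnpla2, the inhibitor G0s2 was above background on 0 arrays and the activator Abhd5 did not pass the filter.

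All 7 patatin-like phospholipase genes were on the array and 4 were tested. Besides Pnpla1, which was chosen for being higher under disturbed flow, and Pnpla2 these were Pnpla8, a calcium-independent phospholipase gene, with 1.43 (SE 0.80), and Pnpla6, the neuropathy target esterase gene, with 0.49 (SE 0.76). Pnpla8 gave 0.48 without disturbed flow replicate 2. Pnpla6 gave -0.26 without disturbed flow replicate 1, -0.23 with its other probe and -0.42 with scaling to a common 75th percentile. Pnpla3 and Pnpla5 were above background on 0 arrays.

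Of 16 lipoprotein receptor and cholesterol export genes, 14 were on the array and 7 were tested, with a median of 0.09 and 4 higher and 3 lower. Acvrl1, a TGF-beta family receptor that also binds low-density lipoprotein for transport across endothelium, differed by 1.29 (SE 0.46), and Abca1, which exports cholesterol, by -0.81 (SE 0.41) with -0.37 without stable flow replicate 1. In each of these genes the groups did not overlap. The scavenger receptor Msr1 and the exporter Abcg1 were above background on 0 arrays.

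Of 9 genes of the PPAR and LXR lipid-sensing receptors and partners, 8 were on the array and only Rxrb was tested (0.37, SE 0.66, and -0.39 without stable flow replicate 2). Ppara, Ppargc1a and Ppargc1b were above background on 0 arrays. Fatty acid oxidation was the best measured list, with 11 of 14 genes tested, 5 higher and 6 lower, and a median of -0.09. Its genes with the smallest p differed in opposite directions and did not pass the test. Acads, short-chain acyl-CoA dehydrogenase, had 6.89 ± 0.75 under stable flow and 5.25 ± 0.53 under disturbed flow, a difference of -1.64 (SE 0.49, limma adjusted p = 0.890). Slc25a20, which carries acylcarnitines into mitochondria, had 5.50 ± 0.27 and 7.62 ± 1.39, a difference of 2.12 (SE 0.68, limma adjusted p = 0.890), with 1.48 (SE 0.61) from its other tested probe.

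The sizes of these list genes depended on the background correction and scaling. With no background correction the differences were -0.21 for Lmf1, 0.37 for Acsl3, -0.18 for Hilpda, 0.72 for Pnpla8, 0.25 for Pnpla6, 0.50 for Acvrl1, -0.27 for Abca1, 0.11 for Rxrb, -0.72 for Acads and 1.16 for Slc25a20. Scaling to a common 75th percentile, which moved the median of all tested probes to -0.68, gave 0.097 for Acvrl1, -1.57 for Abca1, 0.60 for Pnpla8 and 1.36 for Slc25a20.

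**Figure D5:**
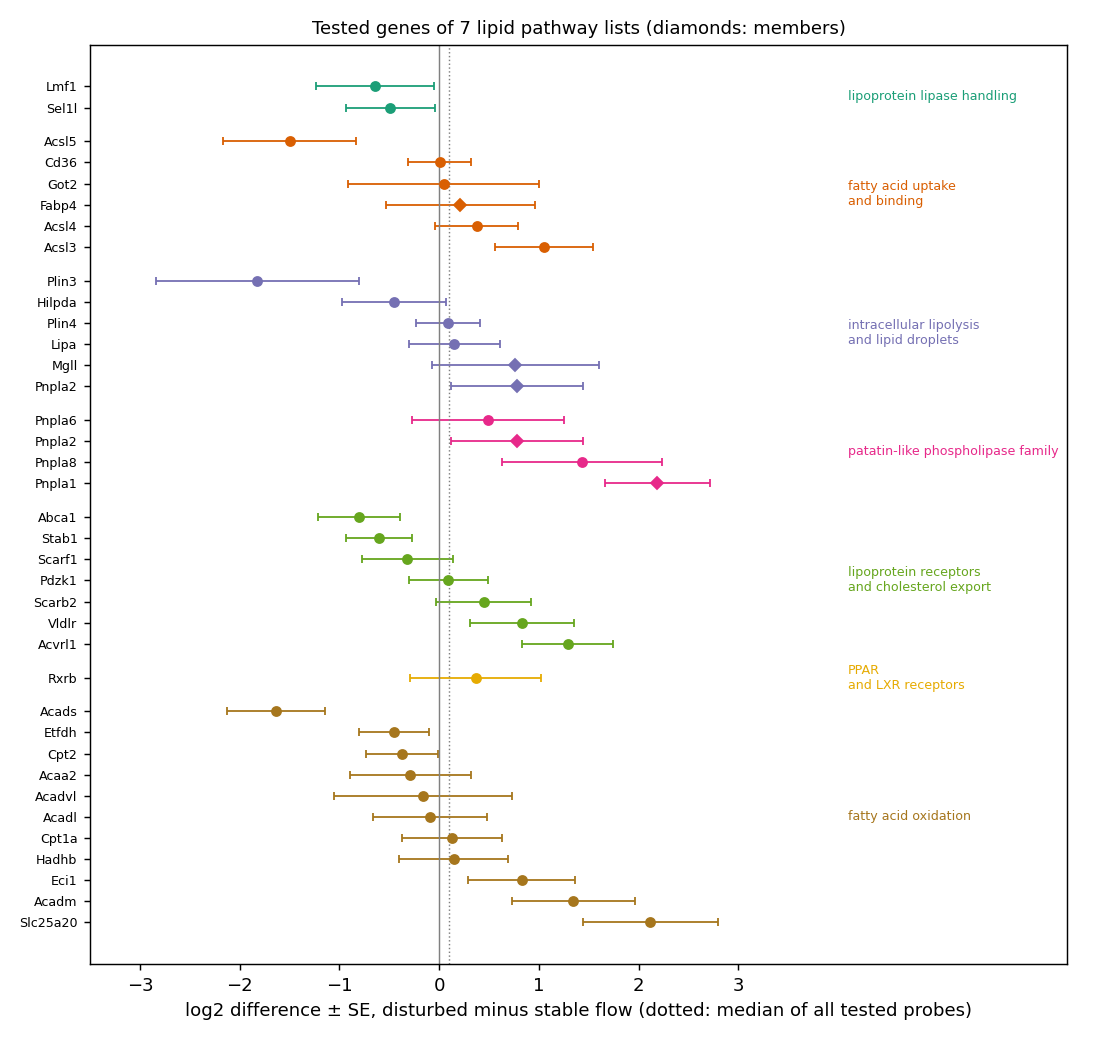
Log2 difference with its SE, described disturbed flow minus stable flow, of each tested gene of 7 lipid pathway lists; diamonds are members and the dotted line is the median of all tested probes, 0.10. Each list of at least 5 tested genes has values on both sides of 0.

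The genes most like the chosen ones across arrays were found by the root mean square difference between log2 profiles centred on each probe's mean over the 6 arrays. For the brightest Mgll probe they were Ubr3 (0.12), Cnot2 (0.19) and Srd5a3 (0.20), against a median of 1.22 over all named probes, and all 3 were high on disturbed flow replicate 1 alone. For Pnpla1 they were Slc25a20 (0.34), H2-Ab1 (0.36) and Ogdh (0.42), against a median of 1.29. Slc25a20 had 5.81, 5.32 and 5.36 under stable flow and 8.43, 6.01 and 8.41 under disturbed flow, and in both it and Pnpla1 disturbed flow replicates 1 and 3 lay above replicate 2. With 6 arrays and 12546 probes some profiles lie close in any case.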

How the data were processed

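Each array's raw signal intensity, 1 per probe, was deposited beside a detection p-value, per the file headers. The submitters' processing notes list GenomeStudio 2011.1, and the sources used here give no settings. The authors also deposited a table of processed intensity values, linear and not centred (column medians 2.50 to 2.62), with no stated scaling. With neqc in limma 3.58.1 (R 4.3.3), background was estimated from the detection p-values, an offset of 16 was added, and arrays were quantile-normalized as log2 values. The fit (lmFit, eBayes) covered the 12546 probes detected at p under 0.05 on 3 or more of 6 arrays. Tests were two-sided and adjusted over all tested probes by Benjamini-Hochberg. The number of arrays limits precision: the median SE of a log2 difference was 0.45.

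Probes were named through the platform annotation, with symbols brought up to date by gene identifier. A single symbol was available for 34885 probes, 18 probes with several were left unnamed, and 10378 had none here. Members and lists were chosen with earlier results of these data known. Named genes are the members with all probes, the 2 non-members with the smallest p in each list, the 3 nearest profiles for Mgll and Pnpla1, and defining markers. Other list genes are named only for having no detected or no tested probe, or as the sole tested gene. The adipocyte marker Cfd and the macrophage marker Cd68 had no probe under these symbols. Probe sequences were not used here, and no coordinates are given because no source names a build. The fit was tested on simulated data. Replicate numbers shared by both groups were tried as a block, and slide could not be fitted beside the group.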

Additional observations from a re-analysis of the deposited data

How the results depend on the processing

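Limma called 0 probes under all 15 alternatives, with 224 to 2097 probes at an unadjusted p under 0.05. Slide as a block could not be fitted, since slide and group coincide. Same-numbered samples did not deviate together (correlations of -0.03, -0.07 and -0.08, and 0 samples closest to their own number), so the numbers were not taken as pairs. Replicate numbers follow the order in which samples are listed within each group, and no other pairing was tried. With replicate number as a block limma called 0 probes, with 329 at an unadjusted p under 0.05. Each number occurs in both groups, so a block cannot change a log2 difference, only its SE. The differences thus stayed at 0.76 and 1.39 for Mgll, 2.19 for Pnpla1, 0.78 for Pnpla2 and 0.21 for Fabp4. Their SEs with the block were 0.73 and 0.41 for Mgll, 0.45 for Pnpla1, 0.70 for Pnpla2 and 0.83 for Fabp4. A stricter filter, detection p under 0.01, was added after seeing the data. It removed the brightest Mgll probe and gave a median of 0.13 for fatty acid oxidation, and the cause of other moves was not tested unless stated.

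Scaling to a common 75th percentile moved the median of all tested probes to -0.68. Under it the differences were 0.37 for Mgll ILMN_2700408, 1.14 for Pnpla1, 0.18 for Pnpla2, -0.0025 for Fabp4, -0.079 for Acsl3, -0.42 for Pnpla6 and -0.72 for Rxrb. Relative to that shift all of these but Rxrb lie higher. The list medians there were -0.72 for uptake and binding, -0.59 for lipolysis and droplets and -0.68 for receptors and export. With no background correction Mgll ILMN_2700408 gave 0.47 and Pnpla1 0.97. Cyclic loess gave 1.18 for Mgll ILMN_2700408, 0.023 for Hilpda, -0.24 for Rxrb and 0.068 for the oxidation median. Array weights gave -0.29 for Rxrb and medians of -0.058 for uptake and binding, -0.021 for receptors and export and 0.17 for oxidation.

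In the deposited value table, values under 16 were set to 16 before log2 was taken, so differences from it depend on that floor. For each tested Mgll probe, every disturbed flow column lay under the floor. By its column names, that table gave -1.18 and -1.36 for Mgll, -2.68 for Pnpla1, -1.22 for Pnpla2 and -0.31 for Fabp4. It gave 0.52 for Sel1l, 0.73 for Lmf1, 1.61 for Acsl5, -1.22 for Acsl3, 1.99 for Plin3, 0.78 for Hilpda, -1.74 for Pnpla8 and -0.41 for Pnpla6. It gave -1.51 for Acvrl1, 0.84 for Abca1, -0.48 for Rxrb, 2.10 for Acads and -2.55 for Slc25a20, and medians of -0.13, -0.14, -0.15 and 0.013 for uptake, lipolysis, receptors and oxidation. These signs follow from columns that hold arrays of the other described group.

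When single arrays were left out, differences ranged from -0.27 to 1.39 for Mgll ILMN_2857957, 1.20 to 1.47 for Mgll ILMN_2700408, -0.40 to 0.89 for Fabp4, -1.12 to 0.021 for Lmf1, -0.82 to 0.057 for Hilpda, -0.26 to 0.98 for Pnpla6 and -0.39 to 0.70 for Rxrb. List medians ranged from -0.25 to 0.31 for lipolysis, -0.094 to 0.29 for receptors and -0.28 to 0.23 for oxidation. The ratios to the bound ranged from 0.946 to 1.70 for Lpl and 0.959 to 1.70 for Scarb1, lowest without stable flow replicate 2. Signal over background limits the rest: 9 of the 14 member probes could not be tested.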
